A study of Mus musculus with 6 samples.

Results

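The collagen chain genes of the mouse were followed in tumors treated with GB2 and in tumors given PBS. They were taken by name, as every gene of the table whose symbol is Col, a type number, the letter a and a chain number, which gave 43 of 33965 genes. By type number they fell into 11 fibrillar genes (types 1, 2, 3, 5, 11, 24 and 27), 8 basement membrane genes (types 4, 15 and 18), 6 genes of type 6 and 18 others. The naming rule uses no expression value, though the family was taken up with earlier results of these data known.

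RNA was sequenced from 6 tumors, 3 from mice that received PBS and 3 from mice that received GB2, and the dose of GB2 is not given in the labels. All hosts were C57BL/6 mice, described in the study's methods as females bought at 6 weeks of age, carrying tumors labelled MC38, a colon carcinoma line, under the skin. GB2 is a prodrug given intravenously, in which MSA-2, an agonist of the innate immune sensor STING, is joined to artesunate, described there as an inhibitor of the receptor TREM2, by a disulfide bond that glutathione cleaves. No label says that the 3 tumors of a group came from separate mice, so each p-value below measures the spread between these samples.

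Collagens are extracellular proteins built from 3 chains wound into a triple helix. Fibrillar collagens assemble into the banded fibers of connective tissue and of tumor stroma, type 4 forms the sheet of basement membranes under epithelia and around vessels, and type 6 makes beaded filaments in the matrix between these structures. In solid tumors most fibrillar collagen is made by fibroblasts, while endothelial cells and pericytes contribute to the basement membrane.

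The label of the tumor line was checked first. The 7 melanocyte-lineage genes Pmel, Dct, Tyrp1, Tyr, Mlana, Sox10 and Mitf, a list added after the data were seen, summed to between 2985 and 5174 FPKM (fragments scaled by transcript length and sequencing depth) in each tumor. The 8 epithelial markers Epcam, Krt8, Krt18, Krt19, Krt20, Cdh1, Vil1 and Cdx2 summed to between 2.29 and 5.17 FPKM, with Cdx2 and Krt19 at or near 0. These levels go against a colon carcinoma line and held in all 6 libraries, so the tumors are called here by their treatment. The PBS and GB2 values of each of the 7 melanocyte-lineage genes overlapped, with log2 fold changes from -1.01 to 0.49.

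Total counts ran from 64764405 to 83690056 per library, and the 3 GB2 libraries were the larger ones. About 4 counts stood for 1 read pair. Levels of the collagen genes are given in CPM, counts scaled to a common library size after TMM normalisation, or as counts where these are few. Different genes are compared in FPKM unless CPM is named. The log2 fold changes come from the counts unless another unit is named. By the quasi-likelihood test of edgeR, with Benjamini-Hochberg adjustment over the 19602 genes kept by the filter, 0 genes passed an adjusted p of 0.05 with a fold change of at least 2, 1360 had an unadjusted p under 0.05, and the smallest adjusted p was 0.166. DESeq2 called 373 genes at the same limits.

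More collagen transcript was measured in the GB2 tumors than in the PBS tumors. Collagen genes held 0.101%, 0.144% and 0.154% of all counts with PBS (tumors 1, 2 and 3, the order of all values that follow) but 0.262%, 0.213% and 0.299% with GB2. The groups did not overlap. Summed over the 43 genes, the FPKM was 169 ± 39.5 (SD, n = 3) with PBS and 316 ± 51.2 (SD, n = 3) with GB2, a ratio of 1.87. The 6 skeletal muscle markers summed to 47.8, 40.5 and 67.8 FPKM with PBS and to 104.7, 89.3 and 90.6 FPKM with GB2, a ratio of 1.82 without overlap. Of these 6, 4 had all GB2 values above all PBS values, against 8.61% of all tested genes, and their part in the collagen result was not tested. In tumor pieces, more collagen-producing cells and more collagen RNA per cell cannot be told apart.

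Of the 43 genes, 40 passed the filter on low counts. Col4a6, Col19a1 and Col26a1 did not, and each stayed at or below 0.152 CPM in every tumor. Col26a1, counted 9, 6 and 10 times with PBS and 0, 4 and 0 times with GB2, lay lower in every GB2 tumor but is outside the tallies below. Some sparse genes within them, Col24a1 and Col6a5 among these, passed the filter only through their GB2 counts. In 23 of the 40 all GB2 values exceeded all PBS values, and in 0 all GB2 values lay below, where the same holds for 8.61% and 6.68% of all tested genes. An unadjusted p under 0.05 with at least a 2-fold higher level was reached by 15 of the 40, against 3.74% of all tested genes, and the same with a lower level by 0 of the 40, against 0.918%, and 4.66% of all tested genes met the limit in either direction. The median log2 fold change was 0.82 over the 40 and -0.02 over all tested genes, and 29 of the 40 were positive, against 48.3% of all tested genes.

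By edgeR 19 of the 40 had an unadjusted p under 0.05, against 1360 of the 19602 tested genes. None of the 40 passed the adjusted threshold, where 0% of all tested genes were called, and their smallest adjusted p was 0.186. DESeq2 called 12 of them higher in GB2 and 0 lower, against 1.49% and 0.16% of the 22545 genes it tested. These 12 were Col1a1, Col1a2, Col3a1, Col5a1 and Col5a2 of the fibrillar class, Col6a1, Col6a2 and Col6a3, and Col8a1, Col12a1, Col14a1 and Col23a1.

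Upstream sequences from RefSeq on GRCm38.p6, whose positions differ from those of the table, were read for 35 of the 43 genes in 38 entries. Printed here are the 150 bases before the annotated start of 4 genes that were higher in the GB2 tumors, 1 fibrillar gene of the main fibers, 1 of the minor fibers, 1 of type 6 and 1 network collagen, followed by Col11a2, which was not higher. Capitals mark 4 motifs searched on both strands, which are TATAAA for the TATA box, CCAAT for the CCAAT box, GGGCGG for the GC box and TGANTCA for AP-1.
Col3a1, chr1:45311388-45311537, + strand: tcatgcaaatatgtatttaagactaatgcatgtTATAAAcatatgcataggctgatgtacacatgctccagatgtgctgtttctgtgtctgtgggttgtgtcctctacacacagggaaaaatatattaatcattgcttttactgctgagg
Col5a1, chr2:27886275-27886424, + strand: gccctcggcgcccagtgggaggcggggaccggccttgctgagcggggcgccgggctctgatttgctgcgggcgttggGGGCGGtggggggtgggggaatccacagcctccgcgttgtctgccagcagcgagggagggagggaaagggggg
Col6a3, chr1:90843972-90844121, - strand: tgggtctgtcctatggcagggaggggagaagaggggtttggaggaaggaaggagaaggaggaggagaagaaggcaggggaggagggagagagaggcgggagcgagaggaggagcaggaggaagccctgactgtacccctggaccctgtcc
Col8a1, chr16:57754738-57754887, - strand: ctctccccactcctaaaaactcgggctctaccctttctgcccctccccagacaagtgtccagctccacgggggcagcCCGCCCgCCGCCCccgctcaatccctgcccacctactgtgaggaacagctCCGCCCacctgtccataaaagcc
Col11a2, chr17:34038988-34039137, + strand: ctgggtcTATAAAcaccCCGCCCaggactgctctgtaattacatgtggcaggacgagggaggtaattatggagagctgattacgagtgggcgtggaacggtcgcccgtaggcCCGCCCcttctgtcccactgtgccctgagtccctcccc

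The windows differed in these letters. Col3a1 holds TATAAA with its first base 117 bases before the start, Col5a1 holds GGGCGG 73 bases before it, Col8a1 holds GGGCGG on the opposite strand 3 times, Col11a2 holds both TATAAA and GGGCGG, and Col6a3 holds none of the 4. Over the 38 collagen entries GGGCGG was in 19 (50%), CCAAT in 8 (21.1%), TATAAA in 4 (10.5%) and TGANTCA in 1 (2.63%), that of Col6a1. Over 32851 promoter windows of the same length the shares were 28.6%, 24.5%, 7.57% and 4.24%. A match is a description of these letters and not of a binding site.

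**Figure D1:**
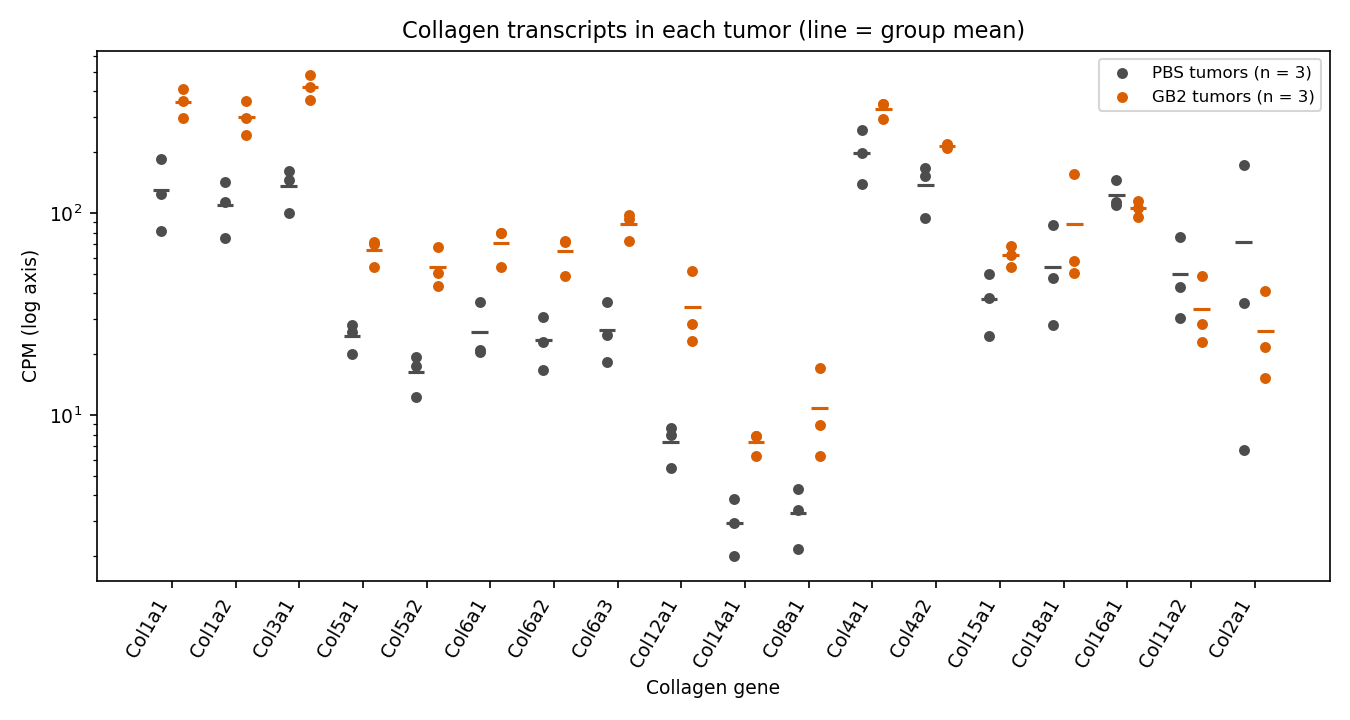
CPM (log axis) of 18 collagen genes in each PBS tumor (grey, n = 3) and each GB2 tumor (orange, n = 3), with a line at the group mean. From Col1a1 to Col15a1 the 3 orange points lie above the 3 grey points, and from Col18a1 to Col2a1 they overlap. The 18 are a selection made without a fixed rule, and over all 40 tested genes 23 had every GB2 value above every PBS value.

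Types 1 and 3 are the major fibers of skin, vessel wall and scar, and their 3 genes stood 2.71 to 3.11 times higher in the GB2 tumors. Col3a1, the only chain of type 3, was at 146, 162 and 100.4 CPM in PBS tumors 1, 2 and 3 and at 422, 362 and 484 CPM in GB2 tumors 1, 2 and 3. The lowest GB2 tumor held more than 2 times the level of the highest PBS tumor. Its log2 fold change was 1.64 (SE 0.23, edgeR adjusted p = 0.186, DESeq2 adjusted p = 1.5e-06). Col1a1, the chain present in 2 copies in type 1, was at 124, 184 and 81.7 CPM with PBS and at 358, 294 and 414 CPM with GB2 (log2 fold change 1.45, SE 0.31, edgeR adjusted p = 0.245). Col1a2, its partner chain, was at 114, 142 and 75.4 CPM and at 296, 242 and 360 CPM (log2 fold change 1.44, SE 0.27, edgeR adjusted p = 0.209). For all 3 genes PBS tumor 3 was the lowest library and GB2 tumor 3 the highest.

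FPKM is scaled by length, so the size of a ratio between chains rests on lengths that the deposited values do not give. In CPM Col1a1 and Col1a2 stood closer than in FPKM, at 124 and 114 in PBS tumor 1. Their FPKM ratio is therefore not read as the copies of each chain in the molecule, and is only compared between groups. The FPKM ratio of Col1a1 to Col1a2 was 2.19 ± 0.231 (SD, n = 3) with PBS and 2.26 ± 0.0662 (SD, n = 3) with GB2, and the groups overlapped. That of Col3a1 to Col1a1 was 0.732 ± 0.128 and 0.798 ± 0.0223, which also overlapped. More uneven with PBS were Col5a1 to Col5a2, at 1.79 ± 0.699 and 1.38 ± 0.183, and Col8a1 to Col8a2, at 15.4 ± 12.04 and 11.8 ± 3.17. Both overlapped.

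Type 5 is a minor component of the same fibers that sets their diameter. Col5a1 was at 20.2, 25.9 and 27.9 CPM with PBS and at 70.1, 54.3 and 72.3 CPM with GB2 (log2 fold change 1.41, SE 0.20, edgeR adjusted p = 0.186). Col5a2 was at 19.4, 17.5 and 12.3 CPM and at 50.5, 43.7 and 68.0 CPM (log2 fold change 1.72, SE 0.25, edgeR adjusted p = 0.186). In both the groups were well apart. Col5a3, the third chain gene of the type, was at 39.4, 48.5 and 74.8 CPM with PBS and at 101, 77.1 and 66.0 CPM with GB2. Its groups overlapped, since GB2 tumor 3 lay below PBS tumor 3 (log2 fold change 0.59, SE 0.28, edgeR adjusted p = 0.757). In GB2 tumor 3, where Col5a2 was highest, Col5a3 was lowest of its group.

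The other fibrillar genes were measured at lower or uneven levels. Col24a1 was counted 2, 20 and 8 times with PBS and 45, 58 and 49 times in the GB2 tumors (log2 fold change 2.05, SE 0.75, edgeR adjusted p = 0.635), and without PBS tumor 2 the log2 fold change was 2.99. Col27a1, a collagen of cartilage and other tissues, was at 2.52, 2.75 and 0.849 CPM and at 3.95, 3.14 and 3.66 CPM (log2 fold change 0.81, SE 0.45). The GB2 values of both lay above the PBS values, with edgeR adjusted p = 0.757 for Col27a1. Col11a1 ranged from 0.998 to 3.55 CPM and its groups overlapped, with a log2 fold change of 0.71, and 0.033 without GB2 tumor 3.

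Col2a1 and Col11a2, which belong to the fibers of cartilage, were not higher in the GB2 tumors. Col2a1, the main cartilage collagen, was at 6.70, 36.1 and 172 CPM in PBS tumors 1, 2 and 3 and at 21.8, 15.2 and 41.2 CPM with GB2. The PBS tumors alone spanned the whole range, and the groups overlapped (log2 fold change -1.46, SE 0.98, edgeR adjusted p = 0.776). Without PBS tumor 3 its log2 fold change was 0.28. Col11a2 was at 43.0, 30.3 and 76.4 CPM and at 28.3, 23.0 and 48.9 CPM (log2 fold change -0.58, SE 0.40, edgeR adjusted p = 0.781). PBS tumor 3 was again the highest of all 6 libraries, and without it the log2 fold change was -0.13. Of the 8 cartilage and bone markers 7 were in the table, their summed FPKM was 0.466 ± 0.0708 with PBS and 0.474 ± 0.108 with GB2, Ibsp was at 0 in every tumor, and Acan and Comp reached at most 0.0128 and 0.0518 FPKM.

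Over the 11 fibrillar genes the summed FPKM was 51.6, 73.7 and 72.2 with PBS and 156, 123 and 177 in the GB2 tumors, a ratio of the means of 2.31. Fibroblast markers were higher as well. The 10 fibroblast markers, which hold no collagen gene, summed to 29.8, 47.6 and 34.4 FPKM with PBS and to 63.9, 64.6 and 72.3 FPKM with GB2, a ratio of 1.80, and for 8 of the 10 all GB2 values exceeded all PBS values, against 8.61% of all tested genes. Pdgfra, a receptor that marks fibroblasts, had a log2 fold change of 1.93 (edgeR adjusted p = 0.186), and Dcn, the fiber-binding proteoglycan decorin, one of 1.55 (edgeR adjusted p = 0.186). Fbln1, the most abundant of the list, and Pi16 overlapped. The part of the number of fibroblasts in the collagen result was not tested.

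In 5 of the 6 type 6 genes all GB2 values exceeded all PBS values, against 8.61% of all tested genes, and Col6a4 overlapped. Of the 5, Col6a5 and Col6a6 rested on few reads. By the unadjusted criterion 3 of the 6, Col6a1, Col6a2 and Col6a3, were higher, against 3.74%. Col6a1, Col6a2 and Col6a3 make up the common form of type 6. Col6a3, the largest of them, was at 18.2, 36.2 and 25.0 CPM with PBS and at 97.4, 72.4 and 93.8 CPM with GB2. The groups were far apart, with a log2 fold change of 1.73 and an SE of 0.28 (edgeR adjusted p = 0.186, DESeq2 adjusted p = 1.3e-05). Col6a1 was at 20.9, 36.4 and 20.5 CPM and at 79.7, 53.9 and 79.3 CPM (log2 fold change 1.45, SE 0.29, edgeR adjusted p = 0.231). Col6a2 was at 16.7, 30.7 and 23.0 CPM and at 71.9, 49.0 and 73.1 CPM (log2 fold change 1.46, SE 0.27, edgeR adjusted p = 0.207). In all 3 genes PBS tumor 2 was the highest of its group and GB2 tumor 2 the lowest of its own.

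The FPKM ratio of Col6a1 to Col6a2 was 2.11 ± 0.369 (SD, n = 3) with PBS and 2.09 ± 0.0218 (SD, n = 3) with GB2, and the groups overlapped. The size of this ratio also rests on lengths not given, and in CPM the genes stood closer, at 20.9 and 16.7 in PBS tumor 1. The alternative chains were hardly present. Col6a4, Col6a5 and Col6a6 stayed between 0 and 0.676 CPM. Col6a4 was counted 40, 29 and 0 times with PBS and 18, 20 and 23 times with GB2, and its groups overlapped (log2 fold change -0.58, SE 1.18, edgeR adjusted p = 0.911). Col6a5 was at 0.0676, 0 and 0.226 CPM with PBS and at 0.262, 0.240 and 0.353 CPM with GB2 (log2 fold change 1.52, SE 1.12, edgeR adjusted p = 0.789). Col6a6 was at 0.135, 0.326 and 0.113 CPM and at 0.381, 0.505 and 0.541 CPM (log2 fold change 1.30, SE 0.61, edgeR adjusted p = 0.757), and in neither did the groups overlap. The log2 fold change of Col6a5, from PBS counts of 4, 0 and 16, was 3.08 without PBS tumor 3, and that of Col6a6 was 1.93 without PBS tumor 2. Summed over the 6 genes, type 6 stood at 10.3 ± 3.78 FPKM with PBS and 30.9 ± 6.63 FPKM with GB2 (SD, n = 3), a ratio of 2.99 and the largest of the 4 classes.

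The median log2 fold change of the 7 tested basement membrane genes was 0.70, and differences from the other classes were not tested. Col4a1 and Col4a2 encode the 2 chains of the common type 4 network. Col4a1 was at 139, 198 and 259 CPM with PBS and at 348, 292 and 346 CPM with GB2 (log2 fold change 0.73, SE 0.25, edgeR adjusted p = 0.573). Col4a2 was at 94.2, 153 and 168 CPM and at 219, 209.7 and 218 CPM (log2 fold change 0.64, SE 0.23, edgeR adjusted p = 0.629). In both, the GB2 tumors lay close together and above every PBS tumor, and PBS tumor 1 was the lowest. Their FPKM ratio was 1.28 ± 0.116 with PBS and 1.35 ± 0.1001 with GB2, which overlapped.

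Col15a1, a proteoglycan collagen that anchors basement membranes to the matrix, was at 24.5, 50.1 and 38.0 CPM with PBS and at 69.0, 54.0 and 62.3 CPM with GB2 (log2 fold change 0.72, SE 0.27, edgeR adjusted p = 0.652). The groups did not overlap, by a narrow gap between PBS tumor 2 and GB2 tumor 2. Col18a1, the source of the fragment endostatin, was at 27.8, 47.5 and 87.2 CPM and at 57.9, 50.5 and 156 CPM (log2 fold change 0.70, SE 0.54, edgeR adjusted p = 0.795). Its difference rested on GB2 tumor 3, without which the log2 fold change was 0.0014.

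The chains of the specialised type 4 networks, best known from kidney, were lower in level or uneven. Col4a4 was at 22.6, 24.5 and 25.5 CPM with PBS and at 23.2, 16.2 and 18.4 CPM with GB2 (log2 fold change -0.33, SE 0.20, edgeR adjusted p = 0.761). Col4a5 was at 18.5, 21.9 and 33.4 CPM and at 23.3, 28.3 and 19.9 CPM (log2 fold change -0.05, SE 0.27, edgeR adjusted p = 0.967). The groups overlapped in both. Col4a3 was counted 13, 11 and 11 times with PBS and 53, 35 and 15 times with GB2, and its log2 fold change of 1.20 (SE 0.66, edgeR adjusted p = 0.757) came from groups that overlapped.

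Together the 8 basement membrane genes summed to 39.0, 67.2 and 83.5 FPKM with PBS and to 104, 88.1 and 115 FPKM with GB2, a ratio of 1.62. Most vessel markers were higher beside them. The 8 endothelial genes summed to 11.8 ± 1.93 FPKM with PBS and 26.5 ± 1.94 FPKM with GB2 (SD, n = 3), and for 7 of the 8 all GB2 values exceeded all PBS values, against 8.61% of all tested genes. The exception, Vwf, was at 14.8 ± 6.37 CPM with PBS and 10.6 ± 2.36 CPM with GB2 (log2 fold change -0.48, edgeR adjusted p = 0.796) and overlapped. Pericyte and smooth muscle markers summed to 24.4 ± 3.78 and 35.9 ± 7.02 FPKM, with GB2 above PBS in 3 of the 8. Their part in the basement membrane values was not tested.

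Several collagens of the remaining 18 were among the largest differences of the whole family. Col12a1, a fibril-associated collagen that decorates type 1 fibers, was at 5.46, 7.93 and 8.66 CPM with PBS and at 28.4, 23.4 and 51.4 CPM with GB2. The lowest GB2 tumor held more than 2 times the highest PBS tumor, and the mean difference was 4.68-fold (log2 fold change 2.23, SE 0.35, edgeR adjusted p = 0.186, DESeq2 adjusted p = 1.2e-06). Col14a1, of the same fibril-associated family, was at 2.91, 3.83 and 2.00 CPM and at 7.86, 6.25 and 7.91 CPM (log2 fold change 1.33, SE 0.31, edgeR adjusted p = 0.281).

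Type 8 is a short-chain network collagen made by vessel wall and other mesenchymal cells. Col8a1 was at 3.38, 4.33 and 2.16 CPM with PBS and at 8.91, 6.30 and 17.2 CPM with GB2 (log2 fold change 1.71, SE 0.44, edgeR adjusted p = 0.331). Col8a2 was counted 12, 6 and 12 times and 48, 20 and 75 times (log2 fold change 1.88, SE 0.69, edgeR adjusted p = 0.627). In both, GB2 tumor 3 was the highest and GB2 tumor 2 the lowest of its group, and neither overlapped with PBS, though Col8a2 rested on at most 3 read pairs in each PBS tumor.

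The transmembrane collagens were low. Among them Col25a1 overlapped, with counts of 18, 4 and 0 with PBS and 35, 0 and 26 with GB2. Col23a1 had the largest log2 fold change of all 40 genes, 2.45 (SE 0.57, edgeR adjusted p = 0.276), from counts of 14, 18 and 8 with PBS and 70, 63 and 148 in the GB2 tumors. Col13a1 was at 1.91, 2.03 and 1.02 CPM and at 3.51, 2.28 and 2.95 CPM (log2 fold change 0.82, SE 0.37, edgeR adjusted p = 0.750). Col17a1, a hemidesmosome protein of basal keratinocytes, was at 3.97, 1.42 and 1.06 CPM and at 4.38, 5.76 and 6.89 CPM (log2 fold change 1.40, SE 0.52, edgeR adjusted p = 0.641), and without PBS tumor 1 its log2 fold change was 2.21. In Col23a1, Col13a1 and Col17a1 the GB2 values lay above the PBS values.

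Col7a1, the anchoring fibril of the skin, was at 6.04, 5.93 and 3.65 CPM with PBS and at 7.36, 9.38 and 9.26 CPM with GB2 (log2 fold change 0.74, SE 0.28, edgeR adjusted p = 0.670). Skin markers were read beside Col7a1 and Col17a1. The 6 keratinocyte and skin genes summed to 34.3, 14.7 and 8.61 FPKM with PBS and 32.3, 37.6 and 56.0 FPKM with GB2, which overlapped. For 1 of the 6 all GB2 values exceeded all PBS values, against 8.61% of all tested genes. In these sums and in Col17a1, PBS tumor 1 was the highest of its group and GB2 tumor 3 the highest of all, whereas Col7a1 was highest in GB2 tumor 2. Their part in the values of either collagen was not tested.

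Not all of the remaining genes were higher. Col16a1, a fibril-associated collagen, was at 146, 113 and 110.0 CPM with PBS and at 95.3, 115 and 106 CPM with GB2 (log2 fold change -0.22, SE 0.18, edgeR adjusted p = 0.800). By mean FPKM over all 6 tumors it was the fifth most abundant collagen, at 16.8 ± 1.43 with PBS and 15.3 ± 1.16 with GB2, and its rank differed between the groups. Col20a1 was at 16.2, 20.7 and 28.2 CPM and at 17.9, 14.7 and 22.9 CPM (log2 fold change -0.23, SE 0.27, edgeR adjusted p = 0.857). Both overlapped.

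Type 9 collagens sit on the surface of cartilage fibers. Col9a1 was at 6.53, 8.98 and 32.7 CPM with PBS and at 3.62, 2.97 and 23.2 CPM with GB2 (log2 fold change -0.70, SE 0.91, edgeR adjusted p = 0.867). Replicate 3 was the high tumor in each group, and the groups overlapped. Leaving out PBS tumor 3 gave a log2 fold change of 0.36, and leaving out GB2 tumor 3 gave -2.29. Col9a3 was at 5.45, 5.24 and 9.92 CPM and at 6.19, 5.81 and 7.30 CPM (log2 fold change -0.09, SE 0.32, edgeR adjusted p = 0.944). Col9a2, Col10a1, Col25a1 and Col28a1 overlapped as well, with log2 fold changes from -0.83 to 1.01, of which the upper, that of Col25a1, ran from 0.36 to 3.03 without 1 tumor.

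**Figure D2:**
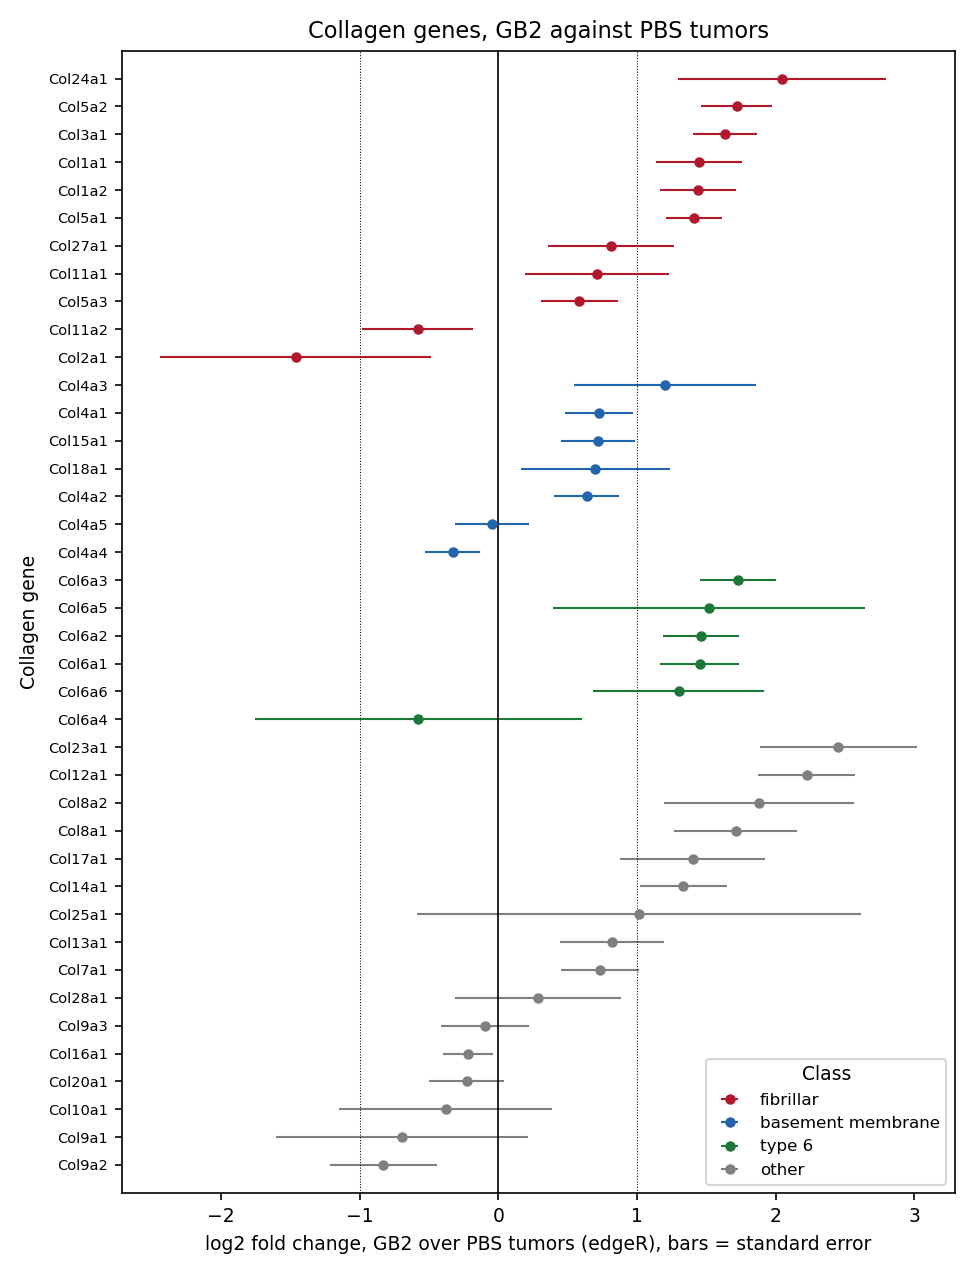
log2 fold change (GB2 over PBS, edgeR) of the 40 tested collagen genes, colored by class, with bars of 1 standard error and dotted lines at 2-fold. To the right of the line at 1 lie 6 fibrillar genes, 5 of type 6, 7 of the others, with Col23a1 the farthest, and of the basement membrane genes only Col4a3.

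The classes differed in their medians. The median log2 fold change was 1.41 for the 11 fibrillar genes, 1.46 for the 6 type 6 genes, 0.70 for the 7 tested basement membrane genes and 0.78 for the 16 tested others. By the unadjusted criterion 6 fibrillar, 3 type 6, 0 basement membrane and 6 other genes were higher, against 3.74% of all tested genes, and by non-overlap 7, 5, 3 and 8, against 8.61%. The 0 of 7 for basement membrane lies near the share over all genes. Differences between classes were not tested.

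The makeup of the collagen transcripts also differed between the groups. Fibrillar genes made up 41.4%, 40.4% and 36.0% of the summed collagen FPKM with PBS and 48.3%, 46.9% and 48.7% in the GB2 tumors. Type 6 made up 5.76%, 7.97% and 4.63% and then 10.8%, 8.86% and 9.50%. Neither overlapped. The remaining collagens made up 18.04% ± 3.42 with PBS and 9.87% ± 1.02 with GB2 (SD, n = 3), also without overlap, while their summed level was 29.8 ± 4.89 and 31.1 ± 5.33 FPKM. Basement membrane genes made up 36.6% ± 5.19 and 32.5% ± 1.04 and overlapped, and their difference of -4.12 percentage points was -1.59 without PBS tumor 3 and -6.78 without PBS tumor 1.

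The larger fibrillar share rested on Col1a1, Col1a2 and Col3a1. With those 3 left out, the fibrillar share was 16.9%, 15.4% and 25.7% with PBS and 17.4%, 15.9% and 16.6% with GB2. These overlapped, and PBS tumor 3, where Col2a1 alone held 9.05% of all collagen FPKM, stood apart. The mean difference was -2.72 percentage points, and 0.44 without that tumor, a comparison added after the data were seen. The type 6 share was 8.28% ± 2.96 and 15.6% ± 1.63 (SD, n = 3).

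**Figure D3:**
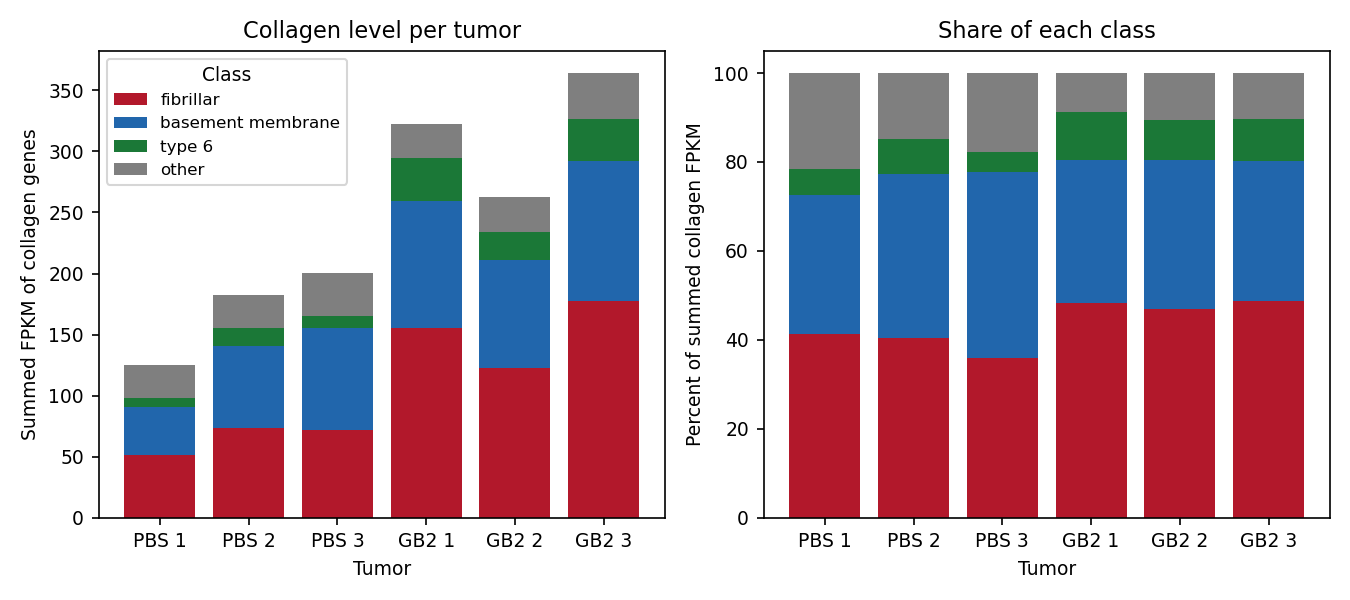
Summed FPKM of the collagen genes in each tumor (left) and the percent of that sum held by each class (right). The 3 PBS tumors sum to 125, 182 and 200.4 FPKM and the 3 GB2 tumors to 322, 262 and 364 FPKM, with taller fibrillar and type 6 segments.

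By mean FPKM over the 6 tumors the family was led by Col1a1 at 35.8, Col4a1 at 34.1, Col3a1 at 27.6, Col4a2 at 25.8 and Col16a1 at 16.1. These 5 held between 48.0% and 61.7% of the collagen FPKM of each tumor. That pooled order held in neither group. The highest group means with PBS were Col4a1 at 25.1, Col4a2 at 19.7, Col1a1 at 18.4, Col16a1 at 16.8 and Col3a1 at 12.8. With GB2 they were Col1a1 at 53.2, Col4a1 at 43.2, Col3a1 at 42.3, Col4a2 at 31.9 and Col1a2 at 23.7. The FPKM ratio of Col1a1 to Col4a1, a comparison chosen after the values were seen, was 1.01, 1.06 and 0.359 with PBS and 1.17, 1.14 and 1.36 in the GB2 tumors. The groups did not overlap, and by FPKM Col1a1 lay below Col4a1 only in PBS tumor 3.

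Tumors of a group also differed from each other. GB2 tumor 2 was the lowest GB2 tumor for 30 of the 40 genes, against 32.5% of all tested genes, and GB2 tumor 3 the highest for 23, against 37.0%. Among PBS tumors no library led to that extent, though PBS tumor 3 was the highest for 5 of the 7 basement membrane genes (32.4% of all tested genes) and PBS tumor 1 the lowest for 6 of the 7 (41.0%).

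Some collagen genes lie side by side in the genome, and positions are given as in the table. Col3a1 (chr1:45350698-45388866, + strand) and Col5a2 (chr1:45413481-45542442, - strand) lie tail to tail, 24614 bases apart with 0 genes between, and had log2 fold changes of 1.64 and 1.72. Col6a2 (chr10:76431596-76459464) and Col6a1 (chr10:76544626-76562002), both on the - strand, lie 85161 bases apart with 0 genes between and had 1.46 and 1.45. Col4a1 (chr8:11248423-11362826, - strand) and Col4a2 (chr8:11362805-11499287, + strand) lie head to head and overlap by 22 bases, and had 0.73 and 0.64. The libraries were made with a strand-marking kit, but whether strand was used in counting is not stated in the sources used here. Neighbours did not always go together, since Col4a4 and Col4a3, 71 bases apart, had -0.33 and 1.20, the latter from few reads.

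The genes that make, process, degrade and bind collagen were read in 4 lists. Before secretion each chain is hydroxylated, folded and packed in the endoplasmic reticulum. Of the 23 genes of that list, all tested, 3 were higher by the unadjusted criterion and 0 lower, against 3.74% and 0.918% of all tested genes. Of the 23, 7 had a positive log2 fold change, against 48.3%, and the median was -0.13. The 3 were P4ha3, a subunit of prolyl 4-hydroxylase (log2 fold change 1.81), P3h4, a partner of the lysyl hydroxylase complex (1.83), and Colgalt2, a collagen galactosyltransferase (2.08), each at most 1.14 FPKM in every tumor.

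None of the 3 most abundant genes of that list met the criterion. P4hb, the protein disulfide isomerase subunit of prolyl 4-hydroxylase, was at 552 ± 83.1 FPKM with PBS and 443 ± 28.8 FPKM with GB2 (log2 fold change -0.39, edgeR adjusted p = 0.757), with all GB2 values below all PBS values. Serpinh1, the collagen chaperone HSP47, was at 235 ± 43.0 and 292 ± 48.2 FPKM (log2 fold change 0.24, edgeR adjusted p = 0.799) and overlapped. Ppib, the cyclophilin that helps chains fold, was at 65.4 ± 6.39 and 60.8 ± 0.682 FPKM (log2 fold change -0.18). P4ha2, a catalytic subunit named after its values were seen, was at 17.5 ± 3.35 and 10.7 ± 1.23 FPKM (log2 fold change -0.79, edgeR adjusted p = 0.279). In 6 of the 23 all GB2 values lay below all PBS values, against 6.68% of all tested genes, and in 4 above, against 8.61%.

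Outside the cell procollagen is trimmed and cross-linked into fibers. Of the 14 genes listed 12 were tested, and all 12 had a positive log2 fold change (48.3% of all tested genes). By the unadjusted criterion 3 were higher (3.74% of all tested genes) and 0 lower (0.918%), and the median was 0.69. Lox, lysyl oxidase, which starts the cross-links, was at 1.25, 0.798 and 0.753 FPKM with PBS and at 4.10, 3.01 and 5.61 FPKM with GB2 (log2 fold change 2.08, SE 0.35, edgeR adjusted p = 0.190). Its relative Loxl1 was at 0.585, 1.20 and 0.830 FPKM and at 2.44, 1.68 and 3.23 FPKM (log2 fold change 1.42, edgeR adjusted p = 0.306), and Tgm2, a transglutaminase, had 1.13 (edgeR adjusted p = 0.317). None of these 3 overlapped. The 3 most abundant genes, Pcolce, an enhancer of C-propeptide removal, Loxl3 and Loxl2, overlapped and had log2 fold changes of 0.19, 0.22 and 0.36.

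Collagen-degrading enzymes and uptake receptors held the largest share of higher genes among the 4 lists. Of 12 listed, 10 were in the table and 9 were tested, and 6 were higher by the unadjusted criterion and 0 lower, against 3.74% and 0.918% of all tested genes. In 8 of the 9 all GB2 values exceeded all PBS values, against 8.61%, and the median log2 fold change was 1.86. Mmp13, an interstitial collagenase, was at 0.473, 0.648 and 0.526 FPKM with PBS and at 2.73, 2.33 and 3.55 FPKM with GB2 (log2 fold change 2.30, SE 0.28, edgeR adjusted p = 0.186). The gelatinases Mmp9 and Mmp2 had 2.32 and 1.10 (edgeR adjusted p = 0.186 and 0.234). The collagen uptake receptors Mrc2 and Mrc1 had 1.71 and 1.95 (edgeR adjusted p = 0.193 and 0.234), and Fap, a fibroblast surface protease, 2.03 (edgeR adjusted p = 0.248). Ctsk, the collagen-cleaving cathepsin K, was at 9.09 ± 4.10 and 17.04 ± 1.80 FPKM (log2 fold change 0.84). Mmp14, the membrane collagenase and the most abundant of the list, was at 28.4 ± 3.47 and 29.9 ± 3.20 FPKM and overlapped.

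Mrc1 is also one of the 6 macrophage markers fixed for these tumors, and Fap one of the fibroblast markers. The macrophage markers summed to 39.5 ± 8.41 FPKM with PBS and 156 ± 22.2 FPKM with GB2 (SD, n = 3), a ratio of 3.95, and for all 6 all GB2 values exceeded all PBS values, against 8.61% of all tested genes. Their part in the values of the degrading enzymes was not tested.

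Cells bind collagen through integrins and other receptors. Of the 10 genes listed 9 were tested, 2 were higher by the unadjusted criterion and 0 lower, against 3.74% and 0.918% of all tested genes, and the median log2 fold change was 0.08. The 2 were Itga11, the fibroblast collagen integrin chain, at 0.147 ± 0.0601 and 0.311 ± 0.0297 FPKM (log2 fold change 1.02), and Lair1, an inhibitory collagen receptor of immune cells, at 0.0798 ± 0.0179 and 0.353 ± 0.153 FPKM (log2 fold change 2.04, edgeR adjusted p = 0.234). Itgb1, the integrin beta 1 chain and the most abundant, was at 129.6 ± 7.64 and 145 ± 10.4 FPKM (log2 fold change 0.08). Adgrg1, an adhesion receptor for type 3, and Ddr2, a receptor tyrosine kinase for fibrillar collagen, had -0.03 and -0.10 and overlapped.

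**Figure D4:**
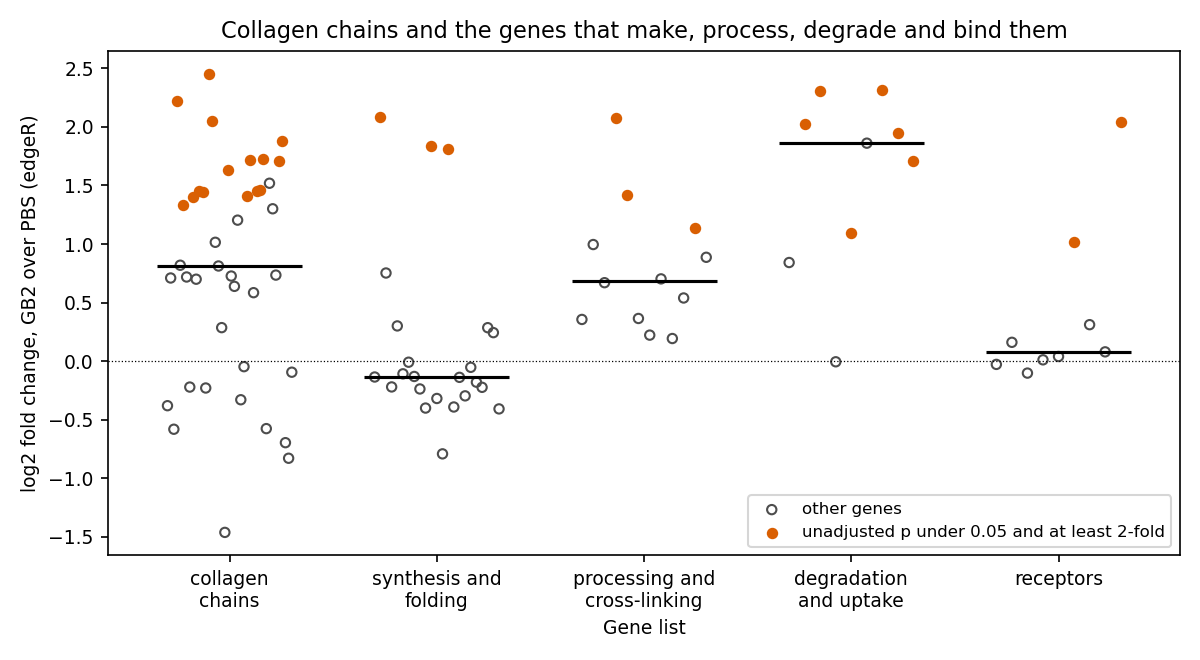
log2 fold change (GB2 over PBS, edgeR) of every tested gene among the collagen chains and the 4 lists, with a line at each median. Filled points had an unadjusted p under 0.05 and at least a 2-fold change, and the medians are 0.82, -0.13, 0.69, 1.86 and 0.08 from left to right.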

How the data were processed

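Poly-A selected, paired-end RNA-seq libraries were made from 6 tumors. The authors deposited 1 table of 33965 genes with estimated counts and FPKM for every tumor, and replicates were not pooled. As deposited, the estimated counts were whole and unscaled, with about 4 to a read pair, whereas the deposited FPKM took transcript length and library total into account. The submitters' processing notes name cutadapt 1.9, HISAT2 2.2.1, StringTie 2.1.6, DESeq2, edgeR and mm10 without giving their roles. Of 31999 genes shared with a GRCm38 annotation, 641 (2.0%) had the same start and end, so although mm10 is named, positions are printed as in the table and its build is uncertain. Of the columns with values of single tumors, 0 were left unused.

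The counts were tested with edgeR 4.0.16 in R 4.3.3, using filterByExpr with a minimum count of 10, TMM scaling, glmQLFit and glmQLFTest of GB2 against PBS, and Benjamini-Hochberg adjustment over all genes tested. Calls needed an adjusted p below 0.05 with at least a 2-fold change, and DESeq2 1.42.0 and limma 3.58.1 served as alternatives. The common dispersion was 0.164, or 40.5% as a biological coefficient of variation. SDs are over 3 tumors. Each SE, also called standard error, was worked back from the edgeR test. It is the absolute log2 fold change divided by the square root of the quasi-likelihood F statistic. The procedure was tested on simulated data.

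The members and gene lists were chosen with earlier results of these data known. Members are given in every tumor where they were tested and had a mean of at least 5 CPM, had groups that did not overlap, or had an unadjusted p under 0.05 with at least a 2-fold change. From the 4 lists of collagen-related genes, those at that unadjusted limit and the 3 highest by FPKM are given. Of the degradation list 2 genes and of the cartilage and bone list Matn1 were not matched in the table. Adipocyte markers summed to 3.27 ± 2.53 FPKM with PBS and 5.63 ± 0.892 FPKM with GB2, and Schwann cell markers, which include Sox10, to 189 ± 79.4 and 196 ± 22.0 FPKM. Replicate numbers were not taken to pair the tumors, since the correlations of same-numbered tumors' deviations were 0.03, 0.15 and -0.24.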

Additional observations from a re-analysis of the deposited data

How the results depend on the processing

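Of the 40 tested collagen genes, 32 kept the direction of their log2 fold change in each of the 17 alternatives that tested them, and the causes of the changes below were not tested. DESeq2 called 373 genes and 12 collagen genes, where edgeR, limma-voom, limma on FPKM and every fit without 1 tumor called 0. The number of collagen genes higher at the unadjusted limit was 15, between 12 and 15 without 1 tumor, and 9 with limma on log2(FPKM + 1), with or without a filter, a scale that shrinks the change of low genes. The number from the 4 collagen-related lists was 14, and 4 in the same 2 fits. The number of lower collagen genes was 0, and between 0 and 1 without 1 tumor: Col2a1 without PBS tumor 1 (-1.98), Col9a2 without PBS tumor 2 (-1.06) and Col9a1 without GB2 tumor 3 (-2.29).

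The fibrillar median of 1.41 was 1.11 with a minimum count of 50, 0.91 with log2(FPKM + 1), 1.07 with log2(FPKM + 0.1) and 0.62 with log2(FPKM + 1) and no filter. With that last setting the basement membrane median was 0.34, the type 6 median 0.65 and the median of the others 0.023. The median of the others was 0.20 with log2(FPKM + 1) and a filter, and ran from 0.33 (without PBS tumor 2) to 0.91 without 1 tumor. Without Col1a1, Col1a2 and Col3a1 the difference in share, in percentage points of collagen FPKM, was -2.72 for fibrillar genes (8.69 with them), 3.67 for basement membrane genes (-4.12) and 7.30 for type 6 (3.60). With PBS tumor 3 left out as well, an alternative chosen after seeing the data, these were 0.44, 3.71 and 5.85. With all genes, the basement membrane difference ran from -6.78 (without PBS tumor 1) to -1.59 (without PBS tumor 3).

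The log2 fold changes that turned sign were small or uneven. With limma on log2(FPKM + 1), with or without a filter, Col4a5 had 0.038 and Col9a3 0.011, and with log2(FPKM + 0.1) Col4a5 had 0.058, Col9a3 0.038 and Col10a1 0.088. With limma-voom Col6a4 had 1.07 and Col10a1 0.037. Without 1 tumor, Col2a1 ran from -1.98 to 0.28, Col4a5 from -0.20 to 0.24, Col6a4 from -1.16 to 0.24, Col9a1 from -2.29 to 0.36, Col9a3 from -0.25 to 0.27, Col10a1 from -0.83 to 0.92, Col20a1 from -0.41 to 0.0094 and Col28a1 from -0.047 to 0.76. The upper ends of Col2a1, Col4a5, Col9a1, Col9a3, Col10a1 and Col20a1 came without PBS tumor 3.

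The tumors share only a replicate number. With the replicate block edgeR called 0 genes, 15 collagen genes were higher at the unadjusted limit, and the log2 fold changes of Col6a4 and Col10a1 were 0.14 and 0.18.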
